A study of Drosophila melanogaster with 3 samples.

Results

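Zasp66, Mlp60A, wupA and Mf are sarcomere genes for which full-length mRNA sequencing of fly heads gave several isoform models. They were chosen by the numbers of models and 3′ ends they have in this assembly, so these counts describe the genes and test nothing. The 4 genes are 4 of the 4696 genes with a model, and their 27 models are 27 of 5980. A model is a set of exons that the assembly joined into 1 mRNA, and all models filed under the identifier of a gene were taken.

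The RNA came from heads of 3-day-old adult Drosophila melanogaster of the strain w1118, called wild type in the labels, which were untreated and kept at 25C. FLAM-seq, which reads whole cDNAs together with the poly(A) tail on a PacBio instrument, was run on 4 µg of total RNA in each of 3 samples, all of them in the single group heads. The reads of the 3 samples were pooled before assembly, so no value has a spread over samples, the depth behind a model is unknown, and a model says that an isoform was assembled, not how abundant it was. Heads hold many tissues, and the models do not say which muscle or other cell an isoform came from.

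A sarcomere slides thin actin filaments past thick myosin filaments between a pair of Z-discs, where the thin filaments are anchored. On the thin filament, the troponin complex blocks the actin-myosin interaction until calcium arrives, and its inhibitory subunit is troponin I, the product of wupA. Myofilin, the product of Mf, is a component of insect thick filaments. Zasp66 encodes a Z-disc protein of the Alp/Enigma family, whose members bind α-actinin, and Mlp60A encodes a muscle LIM protein, built of zinc-binding LIM domains. Insect muscles differ in contractile properties, and much of the diversity of their proteins is known to arise by alternative splicing.

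Having several models was itself uncommon, at 14.9% of all genes (698 of 4696). Zasp66 had 15 models, wupA had 5, Mlp60A had 4 and Mf had 3. No other gene had as many models as Zasp66, while 29 genes had more than wupA, 41 more than Mlp60A and 75 more than Mf. Zasp66 was the one of the 4 genes with several transcription start sites (TSSs), 3 of them, where 5′ ends over 50 nt apart were kept separate. At least 2 TSSs were found in 4.58% of all genes and in 30.8% of the genes with 2 or more models. With 3′ ends kept separate when over 150 nt apart, Mlp60A had 3 and the other genes 2 each, against 28.2% of genes with 2 or more models that had at least 2 and 2.87% that had at least 3 (4.20% and 0.426% of all genes).

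The 4 genes varied their mRNAs in different ways. An optional exon, which another model of the gene skips, was present in Zasp66 (5 exons) and wupA (4 exons) and in neither Mf nor Mlp60A, and 20.3% of genes with 2 or more models had one (3.02% of all genes). The Zasp66 exons measured 119, 72, 160, 1130 and 1918 nt. They are not all separate, since those of 1130 and 1918 nt are longer forms that contain the 160-nt exon. Mutually exclusive exons, which share their flanking splice sites and never stand together, occurred in wupA alone of the 4, compared with 2.29% or 16 of the genes with 2 or more models (0.341% of all genes). A retained intron, an intron of one model that lies within an exon of another, was present in Zasp66 (4 introns), Mlp60A (2) and Mf (1) but not in wupA, and 47.9% of the genes with 2 or more models had one (7.11% of all genes).

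wupA lies on the minus strand of the X chromosome (identifier FBgn0283471), and its models cover chrX:18105394-18116825 in the dm6 build. All 5 models had 8 exons, a single start and the same exons apart from the fifth, which was 1 of 4 alternatives of 101 nt each, and the length of the last. The next gene by this measure, 14-3-3zeta, had 3 mutually exclusive pairs, while the 4 wupA exons form 6 pairs. The exons are shown because they are the coding sequence in which the models differ. In the order of transcription they lie at chrX:18112562-18112662, chrX:18111938-18112038, chrX:18110504-18110604 and chrX:18109470-18109570, and capitals mark the 29 of 101 positions at which all 4 have the same base.

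wupA exon 1 of 4: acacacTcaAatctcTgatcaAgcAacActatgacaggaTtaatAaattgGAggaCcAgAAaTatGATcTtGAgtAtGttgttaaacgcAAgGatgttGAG
wupA exon 2 of 4: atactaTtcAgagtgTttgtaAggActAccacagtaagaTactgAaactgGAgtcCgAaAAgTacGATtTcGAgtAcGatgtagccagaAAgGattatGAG
wupA exon 3 of 4: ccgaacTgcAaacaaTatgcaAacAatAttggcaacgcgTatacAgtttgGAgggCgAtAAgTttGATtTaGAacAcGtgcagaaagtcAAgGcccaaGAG
wupA exon 4 of 4: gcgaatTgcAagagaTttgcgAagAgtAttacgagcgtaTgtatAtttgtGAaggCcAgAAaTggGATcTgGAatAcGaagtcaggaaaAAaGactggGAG

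The shared bases were denser in the downstream part of the exon, with 8 in positions 1 to 50 and 21 in positions 51 to 101, and all 4 exons ended in GAG. Exons 3 and 4 were the most alike, with 56.4% of positions in common, and exons 2 and 3 the least, with 44.6%. Exon 1 shared 55.4% of positions with exon 2, 53.5% with exon 3 and 51.5% with exon 4, and exons 2 and 4 shared 46.5%. Read in the frame of the annotated start codon, each exon contributed to residues 90 to 123 of a predicted protein of 208 residues. All 4 predicted proteins had this length and differed only in this segment.

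The share in common was lower for residues than for bases in each pair. Bases and residues have different numbers of letters, so these shares are not on one scale. Of the 34 residues, 6 were the same in all 4, and the share in common between a pair ran from 32.4% (exons 2 and 3) to 52.9% (exons 1 and 2). Exons 3 and 4, the closest pair in bases, had 47.1% of residues in common. The models thus gave 1 set of residues outside this segment and 4 sets within it.

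The wupA exons were spread over a single long stretch of the gene. The first lay 595 nt downstream of the shared upstream exon, gaps of 523, 1333 and 933 nt followed between the exons, and the last was 2538 nt away from the shared downstream exon. The median intron of the assembly measured 71 nt (12867 introns). Models 1, 2 and 3 each held one of the first 3 exons, and models 4 and 5 both held the fourth.

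Models 4 and 5 of wupA differed at the 3′ end alone. Models 1 to 4 ended at chrX:18105569 in a last exon of 464 nt, and model 5 ended 175 nt further downstream at chrX:18105394 in a last exon of 639 nt. The 4 models that shared the proximal end measured 1159 nt each, and model 5 measured 1334 nt. The distal end was thus assembled with the fourth exon only, although with 1 model at that end no other combination could have been seen beside it. The stop codon was the same in all 5 models, so that the 3′ untranslated region measured 392 nt at the proximal and 567 nt at the distal end.

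The last 30 bases before each wupA end show the sequence that poly(A) cleavage factors read, with 1 of 12 known poly(A) signals in capitals. It is the first of a ranked list where several are present, and the copy nearest the end where that signal is repeated.

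wupA proximal end: atattttttaatgtaaattaaATTAAAtta
wupA distal end: tatagttttgAATGAAaagacagcgatatt

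The proximal end carried ATTAAA with its first base 8 nt before the end, and 9 of the 10 genomic bases that follow the end are A. Another ATTAAA, not marked, overlaps the marked copy on its upstream side. The distal end held neither AATAAA nor ATTAAA in the last 50 nt. It carried the rarer variants AATGAA, with its first base 19 nt before the end, and AATACA, 36 nt before it, and 5 of the next 10 bases are A. Over all 4920 3′ end positions of the assembly, 65.9% had AATAAA or ATTAAA in the last 50 nt, 86.8% had any of the 12 signals and 10.4% were followed by at least 7 A among 10 bases. Genomic A stretches can prime reverse transcription in ordinary libraries, and whether they bear on these ends was not tested.

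The splice sites around the wupA exons were uneven. Each site was scored by how well its bases fit the base frequencies at all 12867 introns of the assembly, and the score was placed as a percentile among them. The donor of the exon upstream of the 4 alternatives, which all models use, scored at percentile 96.5. The donors of exons 1 to 4 scored at percentiles 2.53, 2.87, 53.7 and 1.04, so that 3 of the 4 were among the lowest-scoring sites of the assembly. Exon 2 has a GC in place of the usual GT at its donor, which 0.777% of introns have (100 of 12867).

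The donors are shown with 3 exon bases and 6 intron bases, the first 2 of the intron in capitals, to let the 4 exons be set beside the shared donor.

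wupA shared upstream donor: aagGTgagt
wupA exon 1 donor: gagGTacac
wupA exon 2 donor: gagGCaagc
wupA exon 3 donor: gagGTaaat
wupA exon 4 donor: gagGTactg

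The acceptors of the same exons ranged from percentile 7.28 (exon 1) through 9.84 (exon 3) and 38.0 (exon 2) to 86.7 (exon 4). Exon 4 combined the lowest donor of the gene with an acceptor as high as any in the gene. The acceptor to which all 4 exons were joined was itself low, at percentile 1.38. Low scores were not confined to alternative exons, since the acceptor of the last intron, spliced in all 5 models, stood at percentile 0.832.

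Alternative exons had lower scores across the assembly too. In the 15 other genes with mutually exclusive exons, the donors of these 34 exons had a median percentile of 24.2 and the acceptors one of 11.7. Other optional exons outside the 4 sarcomere genes (174 exons) had medians of 37.8 and 30.1, and the remaining internal exons of genes with 2 or more models (2337 exons) had medians of 52.2 and 47.4. Of the wupA donors 3 of 10 were under the 5th percentile and of its acceptors 2 of 10, where by construction about 5% of all introns fall.

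The annotation lists more wupA isoforms than were assembled. Of its 13 transcripts 4 matched a model intron by intron, and each of the 5 models matched one. The models held 9 of the 15 annotated internal exons, 13 of 21 introns, 1 of 3 TSSs and 1 of 2 3′ ends, where an annotated TSS counts as held when a model began within 50 nt of it and an annotated 3′ end when a model ended within 150 nt of it. Among the 6 annotated internal exons without a model were a 43-nt exon near the 3′ end, found in 3 of the 13 transcripts, and exons of 193 and 183 nt with a shared acceptor between the second and the third exon of the models. No annotated internal exon in the stretch of the 4 alternatives lacked a model.

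**Figure D1:**
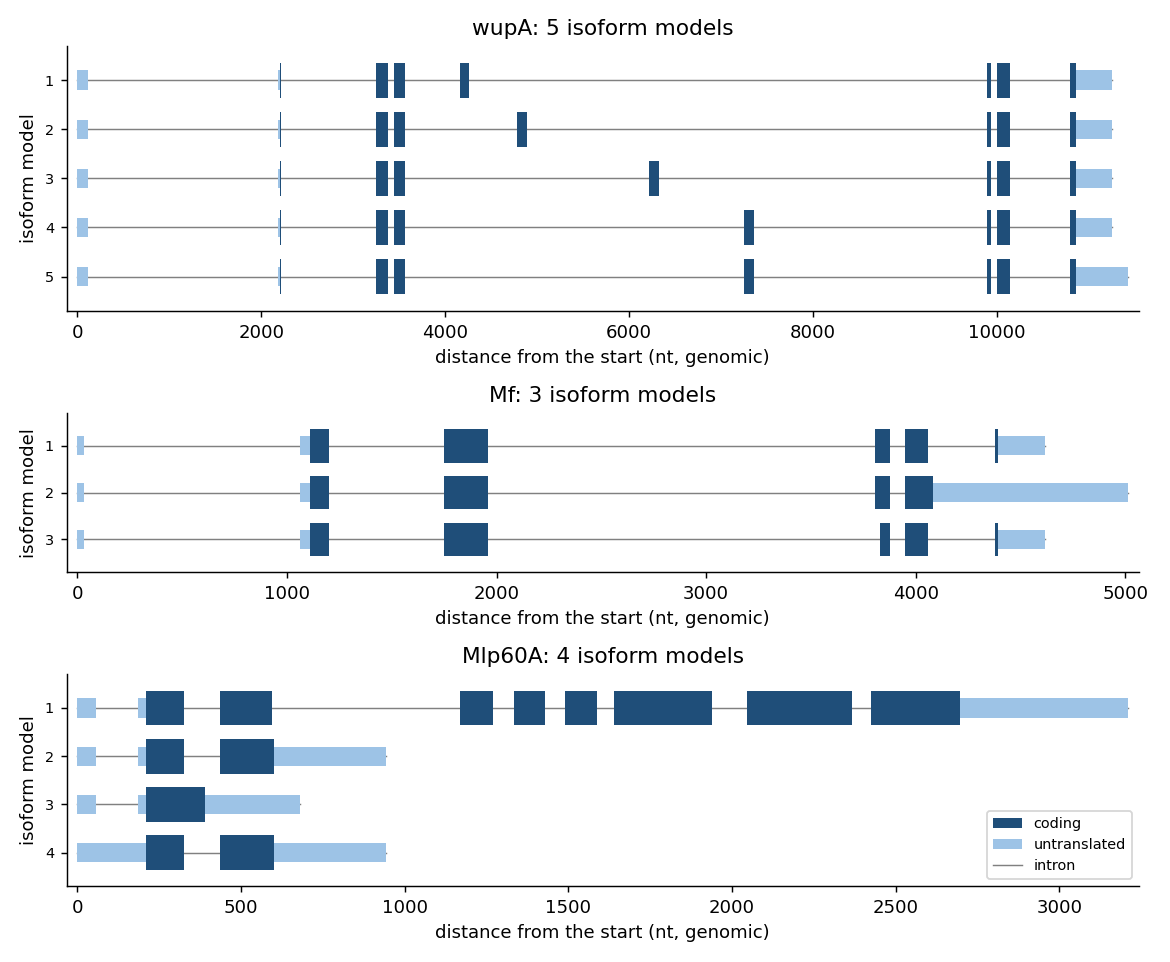
Isoform models of wupA (top), Mf (middle) and Mlp60A (bottom), 1 row a model, drawn in the direction of transcription. The x axis is the genomic distance from the start in nt, dark boxes are coding, light boxes untranslated and lines introns. The fifth exon of wupA takes 4 places, the 3′ part of Mf has 2 forms, and 1 of the 4 Mlp60A models extends past the others.

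Mf (FBgn0038294) lies on the minus strand of chromosome arm 3R, and its 3 models ran from the same start at chr3R:15180240. The 3 models shared their first 3 exons and then differed at an acceptor and at the last exon. The fourth exon began at either of 2 acceptors 21 nt apart, giving an exon of 70 nt in models 1 and 2 and of 49 nt in model 3. The segment between the acceptors, at chr3R:15176413-15176433, is the sequence that only the longer form keeps.

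Mf segment between the acceptors: ttccagctaactacgacgcag

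The length of 21 nt keeps the frame and adds 7 residues to the protein, from 157 in model 3 to 164 in model 1. The upstream acceptor, used by models 1 and 2, scored at percentile 44.4, and the downstream one, used by model 3, at 2.57. The predicted proteins of models 1 and 3 shared their first 100 residues.

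At the 3′ end Mf either spliced a last intron of 320 nt or kept it. Models 1 and 3 spliced it and ended at chr3R:15175626, in a last exon of 238 nt. Model 2 kept the intron and ran on to chr3R:15175227, in a last exon of 1067 nt, and its stop codon lay within the retained intron. Its predicted protein had 168 residues and shared the first 160 with that of model 1, so that the choice changes the C-terminal residues, 4 in model 1 and 8 in model 2. The lengths of the 3 models were 803, 1522 and 782 nt, of which 224, 931 and 224 nt were 3′ untranslated region.

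Both Mf ends are shown with the poly(A) signal in capitals, chosen in the same way.

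Mf proximal end: gtttcattgtataatatataAATATAaaat
Mf distal end: tcagtAATAAAaacatatttaataccaatc

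The distal end of Mf carried AATAAA 24 nt before the end, the most frequent signal. The proximal end carried AATATA 9 nt before it and neither AATAAA nor ATTAAA. Another copy of AATATA, not marked, lies further upstream in the printed bases of the proximal end. The splice sites of the retained intron scored at percentile 41.2 (donor) and 90.9 (acceptor), which was the highest acceptor of the gene. Model 1, which joined the longer form of the fourth exon to the spliced last intron, had a splice chain that no annotated transcript has, and 13.6% of the 5066 multi-exon models were outside the annotation in this way.

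The Mf models covered a small part of the annotated gene. Of 17 annotated transcripts 3 matched a model. The models held 5 of 12 annotated internal exons, 6 of 20 introns, 1 of 4 TSSs and, within the same distances, 2 of 6 3′ ends, the distal of them 112 nt from the end of model 2. The annotated internal exons without a model included 4 that lie downstream of the most distal modelled end, of 171, 231, 363 and 207 nt. The longest annotated Mf transcript measured 2827 nt against 1522 nt for the longest model.

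Zasp66 (FBgn0035917), on the plus strand of arm 3L, had the most complex set. Its 15 models cover chr3L:8624372-8638813, form 14 splice chains and measured 1044 to 3037 nt. The models varied at 3 places: the first exons, a pair of optional exons between the shared exons and the end, and a last exon with 3 end positions. No other gene had as many splice chains.

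Zasp66 was transcribed from 3 starts, at chr3L:8624372 (model 1), chr3L:8626210 (models 2 to 5) and chr3L:8630244 (models 6 to 15). The first and second starts lay 1838 nt apart and the second and the third 4034 nt. The sequences around them are given because the start decides the N-terminus, and they run from 40 bases before the start to 10 from it on.

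Zasp66 start of model 1: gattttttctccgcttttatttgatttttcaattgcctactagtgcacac
Zasp66 start of models 2 to 5: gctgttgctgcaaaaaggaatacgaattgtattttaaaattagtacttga
Zasp66 start of models 6 to 15: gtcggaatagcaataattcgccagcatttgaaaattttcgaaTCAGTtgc

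The capitals mark TCAGT, a form of the Initiator element, which was searched on the transcribed strand from 5 bases before the start to 10 from it on. It was found at the third start and not at the others, and in 14.9% of all 4895 start positions of the assembly. At the third start TCAGT lies wholly downstream of the start position and not across it. The TATA box hexamer TATAAA was absent from the 40 bases before each of the 3 starts and was present at 8.48% of all starts. No match says only that these letters are not in this window.

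The starts gave different N-termini and the same continuation. The first and second starts each had their own first exon, of 312 and 301 nt, and both joined it to exons of 149 and 304 nt. The third start joined a 133-nt first exon to a 119-nt exon, or in model 15 kept the 140-nt intron between them. All 15 models then held the exons of 201 nt and 80 nt. Residues before these shared exons were counted in the frame of the annotated start codons. They numbered 218 from the first start, 190 from the second and 27 from the third. The third start left out the exons of 149 and 304 nt, 453 nt together, and the coding parts of the upstream first exons. The proteins from the first and second starts differed in their first 67 and 39 residues and shared the 339 that followed when the same optional exons were present (models 1 and 4).

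**Figure D2:**
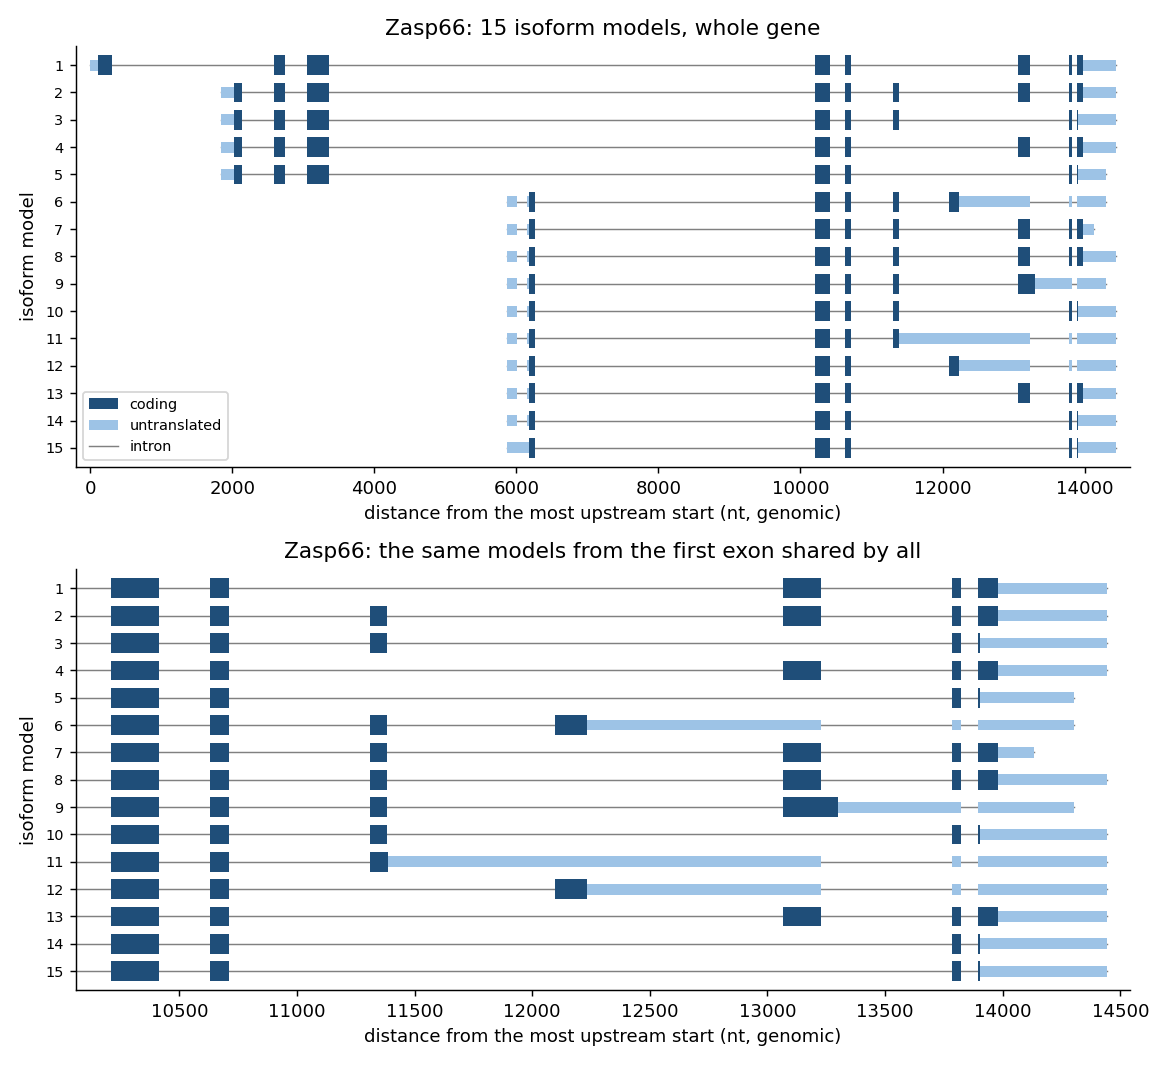
The 15 isoform models of Zasp66 over the whole gene (top) and from the first exon shared by all models onwards (bottom), 1 row a model, with the genomic distance from the most upstream start in nt on the x axis. Dark boxes are coding, light boxes untranslated and lines introns. The 3 starts separate model 1, models 2 to 5 and models 6 to 15, and the long light boxes of models 6, 9, 11 and 12 follow an early stop codon.

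The 119-nt exon of the third start is optional because an intron of models 1 to 5 passes over it. The optional exons that vary among models of 1 start follow the shared exons. The shorter one, of 72 nt at chr3L:8635681-8635752, was in 7 models, and the longer one, of 160 nt at chr3L:8637439-8637598, was in 6. They are printed with the first 30 bases of the last exon, at chr3L:8638267-8638296, because the longer exon changes the frame in which that exon is read. The capitals mark the stop codon that is in frame when the longer exon is skipped.

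Zasp66 shorter optional exon: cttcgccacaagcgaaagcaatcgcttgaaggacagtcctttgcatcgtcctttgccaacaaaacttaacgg
Zasp66 longer optional exon: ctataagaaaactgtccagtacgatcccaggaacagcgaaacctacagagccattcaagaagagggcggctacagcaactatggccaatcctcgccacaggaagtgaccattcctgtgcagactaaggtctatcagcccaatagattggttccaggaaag
Zasp66 start of the last exon: gtggTAAacacccacgatgagaacatacgc

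The shorter exon is a multiple of 3 and added 24 residues in each of 4 pairs of models that differed by it alone before the last exon. The longer exon is not a multiple of 3. It added 80 residues in each of 4 such pairs, since the frame then passed the stop codon ending at chr3L:8638273 and stopped at chr3L:8638353 instead. The pairs were 402 and 322, 378 and 298, 239 and 159, and 215 and 135 residues with and without it.

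The optional exons of Zasp66 occurred in all combinations in the models of the second and of the third start. From the second start, the 4 models held both exons, the shorter alone, the longer alone and neither, 1 model each. From the third start all 4 combinations were present as well, in 2, 1, 1 and 2 models. The single model of the first start held the longer exon alone. Without reads per model, how often each combination was used could not be counted.

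Another 4 models of the third start held longer forms of these exons. Models 6 and 12 entered at an acceptor 970 nt upstream of the longer exon and had an exon of 1130 nt in its place, with model 6 also holding the shorter exon. Model 11 kept the whole stretch between the optional exons as an exon of 1918 nt, and model 9 kept the intron after the longer exon and had an exon of 757 nt. Their stop codons lay 1033 (models 6 and 12), 1881 and 525 nt upstream of the last exon junction, while in the other 11 Zasp66 models the stop was in the last exon. A stop codon more than 50 nt upstream of the last junction was found in 8.19% of the 4945 multi-exon models with a frame. Whether mRNAs with such a stop codon are degraded was not tested.

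The predicted Zasp66 proteins ranged from 135 to 406 residues. The 15 models encoded 13 different proteins. From the first and second starts they measured 298 to 406 residues and from the third 135 to 239, so that the longest of the latter was shorter than any of the former. Models 7 and 8 encoded the same 239 residues and differed at the 3′ end, and models 14 and 15 encoded the same 135 residues and differed in the 5′ untranslated region, of 171 and 311 nt.

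**Figure D3:**
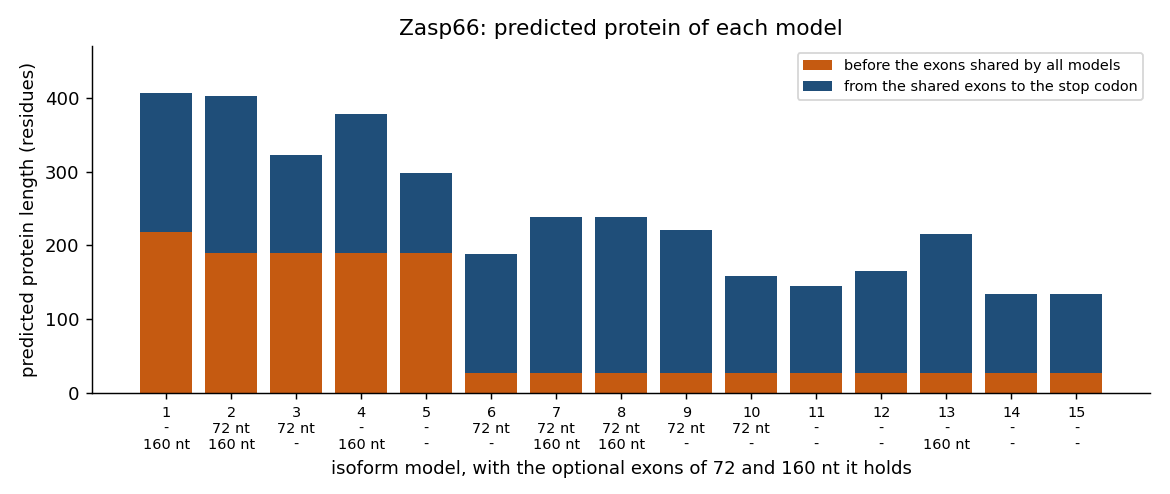
Predicted protein length in residues (y axis) of each Zasp66 model (x axis), with the optional exons it holds written below the model number. The orange part of a bar comes from exons before those shared by all models (218, 190 or 27 residues) and the blue part from the shared exons to the stop codon, and the bars of models 1 to 5 exceed those of models 6 to 15.

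Of the Zasp66 sites that varied between models, both acceptors that enter the longer exon were low. The acceptor of the longer optional exon scored at percentile 1.90 and the upstream acceptor used by models 6 and 12 at 1.64, while the acceptor of the shorter exon scored at 53.5. The donor of the shorter exon stood at percentile 12.1 and that of the longer exon at 86.7. The intron that model 15 retained has a GC donor at percentile 4.28. Here too a site used by every model was low, the acceptor of the last exon, at percentile 1.07. Of the Zasp66 sites, 3 of 10 acceptors and 1 of 11 donors were under the 5th percentile.

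**Figure D4:**
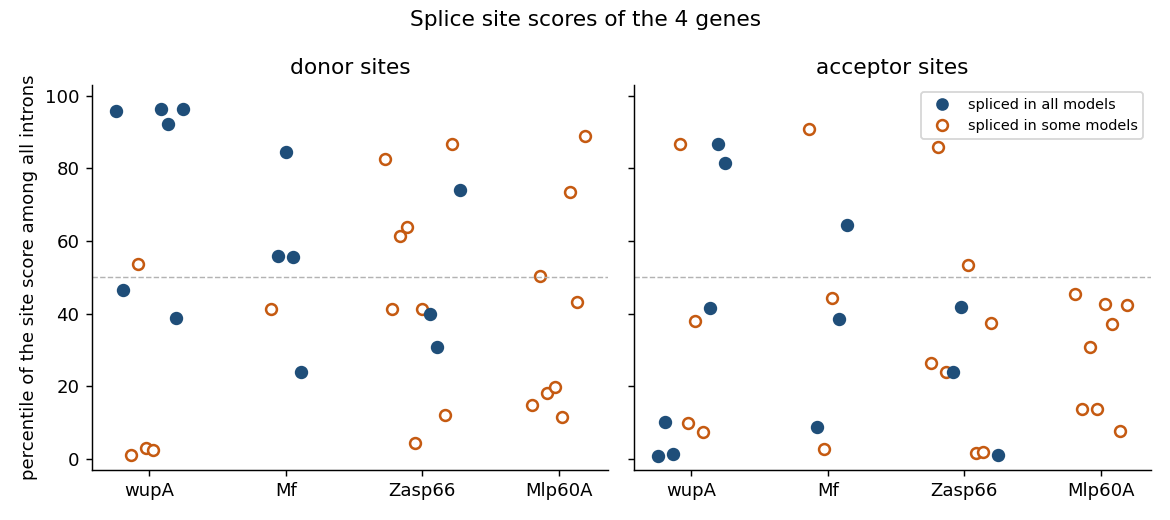
Percentile of the score of each splice site of the 4 genes among all introns of the assembly (y axis), for donors (left) and acceptors (right), with filled points for sites spliced in all models of the gene and open points for sites spliced in some. The dashed line is the median of all introns. The 3 lowest wupA donors are at 1.04, 2.53 and 2.87, and no Mlp60A site is under the 5th percentile.

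All Zasp66 models ended in the same last exon, which starts at chr3L:8638267. It ended at chr3L:8638506 in model 7, at chr3L:8638673 in models 5, 6 and 9, and at chr3L:8638813 in the other 11 models. The second and the third position lay 140 nt apart and count as 1 end, so that the gene had 2. The last exon measured 240, 407 or 547 nt.

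Zasp66 end of model 7: tactcAATAAAttatatgaagaacgacaag
Zasp66 end of models 5, 6 and 9: aaattaattaAATAAAaaaaaaaggaaagt
Zasp66 end of the other models: gttttaattAATAAAagtgactttgattgg

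Each Zasp66 end was preceded by AATAAA, in capitals, with its first base 24, 19 and 20 nt before the end. Of the 10 genomic bases that followed, 5, 4 and 7 were A. The second start was joined to both the second and the third position, as was the third start, while model 1 from the first start used the most distal position. Model 7, with the most proximal end, had both optional exons and came from the third start.

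By annotated internal exons and introns, Zasp66 was the most completely assembled of the 4 genes, together with Mlp60A. The Zasp66 models held all 8 annotated internal exons, all 15 annotated introns, all 3 TSSs and 1 of 2 3′ ends. Of the 12 annotated transcripts 8 matched a model. In the other direction 6 of the 15 models, namely models 6, 9, 10, 11, 12 and 15, had a chain that is not annotated. Model 10 used only annotated introns and combined the third start with the shorter optional exon and without the longer one. The single intron outside the annotation was that of model 6 from the shorter optional exon to the acceptor upstream of the longer one. In the annotation this acceptor opens a last exon of 252 nt that ends at chr3L:8636720, and no model had that last exon or ended there, since models 6 and 12 read past it and spliced on.

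Mlp60A (FBgn0259209), on the plus strand of arm 2R, made a short and a long mRNA from the same start. All 4 models began at chr2R:24075013. Model 1 had 9 exons, ended at chr2R:24078223 and measured 2057 nt. Models 2 and 4 ended at chr2R:24075954 and measured 702 and 831 nt, and model 3 ended at chr2R:24075691 and measured 550 nt. No sequence is printed for this gene.

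The short Mlp60A models arose where the long one spliced. In model 1 an exon of 160 nt ends at chr2R:24075608 and is spliced to the next across 572 nt. Models 2 and 4 did not use this donor, which scored at percentile 18.2, and read on to their 3′ end in a last exon of 506 nt, with the stop codon ending at chr2R:24075612. Model 4 also kept the first intron, of 129 nt, which lies in the 5′ untranslated region and extended it from 81 to 210 nt. Model 3 instead kept the second intron, of 111 nt, and ended in a last exon of 493 nt.

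The Mlp60A proteins differed more in length than those of any other of the 4 genes. Model 1 encoded 486 residues and models 2 and 4 encoded 92, which were the same as the first 92 of model 1. Model 3 encoded 59 residues, of which the first 39 were shared with model 1. Pairs of cysteines with 2 residues between them, the spacing at which LIM domains bind zinc, occurred 20 times in the long protein, 4 times in the protein of 92 residues and 2 times in that of 59. A LIM domain has several zinc ligands, so these pairs do not count domains.

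All 3 Mlp60A ends had a poly(A) signal in the last 50 nt, ATTAAA 28 nt before the end of model 3 and AATAAA 21 and 24 nt before the others, with 3, 3 and 2 A among the next 10 bases. The annotated transcripts, 4 in number, all matched a model, and the models held all 7 annotated internal exons, all 8 introns and all 3 3′ ends but 1 of 3 TSSs. The chain of model 3 is not annotated. Mlp60A had no splice site under the 5th percentile, its donors running from percentile 11.4 to 88.8 and its acceptors from 7.57 to 45.3.

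The ends of the models stood mostly at annotated positions. Each of the 27 models of the 4 genes began at an annotated start, to within 1 nt, and 24 ended at an annotated 3′ end to within the same distance. The exceptions were model 7 of Zasp66, model 5 of wupA and model 2 of Mf, whose ends lay 167, 174 and 112 nt from the nearest annotated one. Over all 5750 models of annotated genes, 91.4% began and 74.2% ended at annotated positions. Spacings between most ends given above are therefore spacings between annotated ends, and they do not show where within that range cleavage or initiation took place in these heads. At the left genomic end, 4588 models lay 1 base to the right of an annotated end and 158 lay at one. Printed starts on the plus strand and 3′ ends on the minus strand may thus be shifted by 1 nt.

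By the number of models, TSSs, 3′ ends, splice chains and optional exons, few genes were like Zasp66. The nearest, by the sum of the absolute differences over these 5 counts, were CLIP-190 with 13 models (sum 7) and Aldh-III and Jupiter with 12 and 11 (sum 8 each). For wupA the sum was 3 for Atpalpha, CG8671 and Crk, which were among 6 genes at that value. For Mlp60A it was 1 for Jabba, Mal-B2 and Phb2, among 5, and for Mf it was 0 for CG14823, CG4218 and CG42542, among 10. The measure uses counts alone.

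Other sarcomere genes were counted for comparison. Of a list of 38 sarcomere genes, 25 had a model, and 9 of these 25 had 2 or more. Without the 4 genes described here, 21 of 34 had a model, and 5 of these 21 had 2 or more. Over all genes with a model, 14.9% had 2 or more, 4.58% had 2 or more TSSs and 0.341% had a mutually exclusive pair. The 5 were the myosin alkali light chain Mlc1 with 3 models, 2 3′ ends, 1 optional exon and 3 retained introns, no fewer than Mf in any of these, the actins Act79B and Act87E with 2 models each, the pointed-end capping protein gene tmod with 2, and the α-actinin gene Actn with 2. Act87E and tmod had 2 TSSs each, and Actn had 1 mutually exclusive pair. By role, 13 of 15 thin filament genes had a model, 4 of 6 thick filament genes, 7 of 12 Z-disc and elastic filament genes and 1 of 5 genes of assembly and calcium handling. The share of all annotated genes that had a model is not given here, so these counts have no background beside them.

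Transcript length differed between the listed genes with and without a model. The shortest annotated transcript of the 21 others with a model had a median of 1567 nt (601 to 3306 nt), and that of the 13 without a median of 3219 nt (746 to 25818 nt). The latter include the giant elastic proteins sls and bt and the myosin heavy chain gene Mhc, with 15263, 25818 and 6621 nt, but also the short troponin C genes TpnC4 and TpnC41C, with 746 and 821 nt, and the paramyosin gene Prm, with 1695 nt. A gene without a model may still be expressed. Of the muscle markers, 4 of 6 general muscle genes had a model, all but Mhc and Prm. So did 3 of 3 tubular or head muscle actins and 2 of 3 flight muscle genes (Act88F and fln, but not TpnC4). Markers of other cells with a model were 2 of 5 for photoreceptors, 1 of 5 for neurons, 2 of 4 for glia, 2 of 3 for fat body and 1 of 2 for hemocytes. The neuronal gene elav and the glial gene repo had none. Counts of markers with a model therefore do not gauge how much of a tissue the heads held. Cdc6 lies within the span of Zasp66 and Gyc88E within that of Mf, both on the opposite strand and neither with a model.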

How the data were processed

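FLAM-seq reads of the 3 heads samples were merged by the authors, mapped with STARlong and assembled with FLAIR, with splice junctions corrected by short reads and 5′ ends required to match the Eukaryotic Promoter Database. The deposited values used here, of no standard unit (other), are exon start and end coordinates in dm6 of the pooled isoform models, and featureCounts is named in the submitters' processing notes. The sources used here do not give whether the authors' filter on 3′ ends was applied. A further column of whole numbers, whose meaning is not stated, was not used, and columns assigned to no sample numbered 0.

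The members and the gene lists were chosen with earlier results of these data known. Named genes are the 4 members, listed sarcomere genes with 2 or more models and up to 3 most alike genes a member. Ends were grouped by single linkage (50 nt for 5′ ends, 150 nt for 3′ ends). Sequences came from RefSeq's Release 6 genome and transcripts from Ensembl release 115. Frames start at the 5′-most annotated start codon in a model. Splice site scores sum log2 ratios of base frequencies to an even composition over 9 donor and 23 acceptor positions. A model of 1 exon took the strand of its gene. Functions were tested on simulated data. Scripts ran in Python 3.11.15 with matplotlib 3.10.9.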

Additional observations from a re-analysis of the deposited data

How the results depend on the processing

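Of 59 recomputed values under the alternatives, 45 stayed within 1.5 times the value given and 14 did not. With 3′ ends called distinct only when more than 300 nt apart, Zasp66 had 1 and wupA had 1. Under a rule that asks for a skipping intron with the same flanking sites, wupA had 0 optional exons, because its exons replace each other. With AATAAA or ATTAAA sought in the last 20 nt in place of 50, ends with a signal numbered 1 for Zasp66, 0 for Mlp60A and 0 for Mf, and with 12 signals in place of 2 they numbered 2 for wupA and 2 for Mf. Shares taken over genes with 2 or more models were 30.8% for several TSSs, 28.2% and 2.87% for at least 2 and at least 3 3′ ends, 20.3% for an optional exon, 2.29% for a mutually exclusive pair and 47.9% for a retained intron. Windows of 20 and 100 nt for 5′ ends changed no count. Leaving out a sample was not possible because the samples were pooled, and no paired analysis was possible because there is 1 group. Depth is unknown, so that an isoform without a model may have been missed, and a start outside the promoter database could not appear.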
